A study of Mus musculus with 26 samples.

Results

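The genes described here are 10 smooth muscle contractile genes, Acta2, Myh11, Tagln, Cnn1, Smtn, Lmod1, Myocd, Des, Mylk and Tpm2. They were taken by symbol from a count table of 21119 mouse genes, and all 10 were in it. RNA was sequenced from the aorta of C57BL6/J mice whose abdominal aorta had been wounded by mechanical pressure. The flush libraries came from lysis buffer run through the lumen of the vessel, a procedure used to collect RNA of the endothelial lining. The injured 48 h flush was taken from the injured abdominal segment of 9 mice 48 h after wounding. The uninjured 48 h flush was taken from the thoracic segment of the same 9 mice. The injured 3 h flush was taken from the injured abdominal segment of 5 other mice 3 h after wounding. The vessel wall group held RNA from the homogenised abdominal aorta left after the flush, 48 h after wounding, of 3 of the 9 mice. All mice were wounded, and no abdominal segment of an unwounded mouse was analysed here. Injury and aortic segment therefore cannot be told apart in the comparisons of injured with uninjured flush. Time and mouse likewise cannot be told apart between 3 h and 48 h. The wall came from the injured abdominal segment at 48 h. The uninjured flush therefore also differed from the wall in segment and injury, and the 3 h flush in time and mice. These differences cannot be told apart from that between flush and wall.

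Smooth muscle cells of the arterial media contract when a rise in calcium activates myosin light chain kinase, which phosphorylates the light chains of smooth muscle myosin. The myosin then pulls on filaments of smooth muscle actin that are covered by tropomyosin and calponin and anchored in dense bodies. Many of the genes are switched on together by serum response factor and its cofactor myocardin, which act through a promoter element called the CArG box. Vascular smooth muscle that is injured or cultured can lower these genes, and the set is widely used to mark contractile smooth muscle. The labels do not say how much smooth muscle reaches the luminal flush. The level of each gene in the flush was therefore set against its level in the wall, gene by gene.

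Promoter windows of 300 bases, 250 before to 50 after the start site, were available from RefSeq (build GRCm38.p6) for 7 of the 10 genes, Acta2, Cnn1, Smtn, Lmod1, Des, Mylk and Tpm2. The windows of 3 of these genes are shown because their flush values differed most in kind. Acta2 rose between uninjured and injured 48 h flush by an amount that depended on the batch, Smtn did not pass the test, and Tpm2 rose 17.3-fold. Capitals mark CArG boxes with 1 base outside A or T in the core, searched on both strands.
Acta2 (chr19:34255324-34255623, minus strand): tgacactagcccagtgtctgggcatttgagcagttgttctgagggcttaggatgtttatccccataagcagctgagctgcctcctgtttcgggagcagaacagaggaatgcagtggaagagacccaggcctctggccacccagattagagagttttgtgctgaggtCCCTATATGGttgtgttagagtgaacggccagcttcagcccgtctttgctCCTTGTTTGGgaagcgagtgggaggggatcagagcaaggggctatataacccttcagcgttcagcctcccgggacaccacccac
Smtn (chr11:3539243-3539542, minus strand): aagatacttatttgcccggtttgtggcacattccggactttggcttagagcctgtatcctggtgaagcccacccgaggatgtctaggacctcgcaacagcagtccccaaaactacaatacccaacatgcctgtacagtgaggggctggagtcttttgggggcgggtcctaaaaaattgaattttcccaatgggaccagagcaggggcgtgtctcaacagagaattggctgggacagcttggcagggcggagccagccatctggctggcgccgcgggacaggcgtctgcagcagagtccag
Tpm2 (chr4:43523505-43523804, minus strand): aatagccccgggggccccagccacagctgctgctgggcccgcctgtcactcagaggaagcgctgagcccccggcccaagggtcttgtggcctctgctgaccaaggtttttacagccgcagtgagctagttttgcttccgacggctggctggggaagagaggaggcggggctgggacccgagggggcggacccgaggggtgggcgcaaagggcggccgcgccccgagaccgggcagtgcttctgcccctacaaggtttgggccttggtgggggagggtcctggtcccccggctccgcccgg
The Acta2 window held both marked boxes, which began 84 and 34 bases before the start site. No window of the other 6 genes held a box with at most 1 deviating base, and no window of the 7 held an exact box. Over all 32851 windows of the same length, 1.63% held an exact box and 9.98% held an exact box or one with 1 deviating base. A window without these letters says nothing of boxes outside it.

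Values are CPM, the counts of a gene scaled to a common library total, after TMM scaling, the edgeR correction for differences in composition between libraries. Fold changes are log2 values from 1 edgeR quasi-likelihood fit over all 26 libraries, given with their standard error (SE). The adjusted p follows Benjamini and Hochberg over the 13884 genes that passed the filter on low counts. All 10 genes passed that filter. Cnn1, Lmod1, Myocd, Des and Tpm2 were at or near 0 in the uninjured flush, so their passing rested on the other groups. For Des that was the wall alone. A gene is said to rise or fall where the adjusted p was under 0.05. In bulk RNA, fewer cells of a type and less RNA per cell cannot be told apart.

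Total counts ran from 1755773 to 5294304 in the uninjured flush, from 2657169 to 4346847 in the injured 3 h flush, from 3904901 to 11982411 in the injured 48 h flush and from 13853003 to 15560008 in the wall. Endothelial markers were high in the flush, with a summed level over 12 genes of 12420 to 14600 CPM in the uninjured, 14600 to 16780 CPM in the injured 3 h and 7592 to 11600 CPM in the injured 48 h flush, against 2209 to 3340 CPM in the wall. The injured 48 h library of mouse E2A stood apart. Its 10 fibroblast markers summed to 10640 CPM against at most 1936 CPM in the other 8 injured 48 h libraries, its 6 mesothelial markers summed to 536.9 CPM against at most 16.8 CPM, its macrophage markers to 1495 CPM against at most 834 CPM, and its endothelial markers were the lowest of all flush libraries. The uninjured library of the same mouse had the highest Acta2, Tagln and Smtn of its group. The uninjured library of mouse E1C had 467.7 CPM of adipocyte markers, against at most 24.0 CPM in the other 8. The part of these markers in the results was not tested.

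In the wall, all 10 genes were far above the flush. Acta2, which encodes smooth muscle alpha actin (chr19:34241090-34255590, GENCODE annotation of GRCm38), stood at 11930, 10130 and 8589 CPM in the 3 wall libraries. Myh11, the smooth muscle myosin heavy chain (chr16:14194535-14291372), stood at 8074, 9270 and 9637 CPM. Per kilobase of exon the order in the wall was Acta2 at 4652 CPM, Myh11 at 1184, Tpm2 at 567.8, Tagln at 507, Cnn1 at 214, Lmod1 at 181, Mylk at 174, Smtn at 162, Myocd at 53.4 and Des at 7.65 CPM per kilobase. The same measure in the uninjured flush was 138 for Acta2, 30.9 for Tagln and 15.4 for Smtn, and Myh11 stood at 3.83 CPM per kilobase. Desmin, the intermediate filament protein that many muscle cells share, was thus the least abundant of the 10 in the wall.

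Each flush group fell below the wall for 10 of 10 genes, and in each of the 3 comparisons the CPM ranges of flush and wall did not overlap for any of the 10. Over all genes tested, 13.5% were lower in the injured 48 h flush than in the wall, 19.2% in the injured 3 h flush and 24.5% in the uninjured flush. Ranges below the wall with no overlap were found for 18.5%, 29.0% and 25.3% of all genes. The median log2 change over the 10 genes was -5.33 for the injured 48 h flush against 0.15 over all genes, and -4.90 against -0.02 for the injured 3 h flush. For the uninjured flush it was -8.15 with Cnn1 and Des, at 0 there, set to their bounds, against -0.17 over all genes. These 3 comparisons share the 3 wall libraries. Des, at most 0.524 CPM in any flush library, passed the filter on low counts through the wall alone. Its fall below the wall was therefore set by the filter and adds no support to the counts of 10. The largest adjusted p among the 30 edgeR tests was 0.000238, for Des at 3 h, where it rested on 1 count in the flush.

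**Figure D1:**
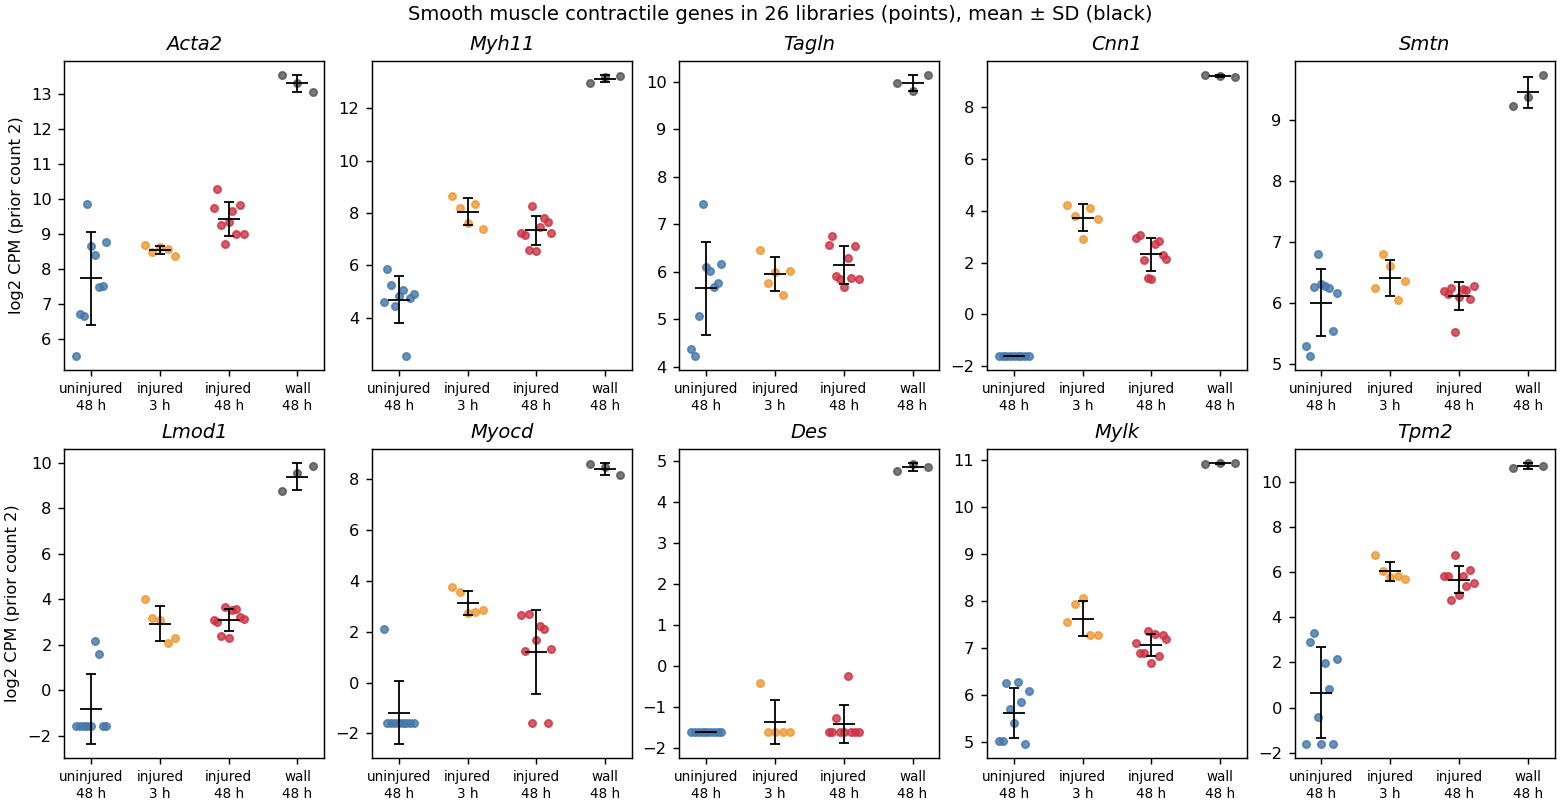
Log2 CPM (prior count 2, vertical axis) of each of the 10 genes in the uninjured 48 h (n = 9), injured 3 h (n = 5) and injured 48 h (n = 9) flush and in the vessel wall (n = 3). Points are libraries and black bars are the mean ± SD; the wall lies above all flush libraries in every panel, and Cnn1 is at 0 counts in all 9 uninjured libraries.

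The genes differed in how much of their wall level the flush held. In the uninjured flush the mean CPM was 9.52% of the wall mean for Smtn, 6.10% for Tagln, 2.97% for Acta2 and 2.64% for Mylk. For Myh11 it was 0.324%, for Tpm2 0.175%, for Myocd 0.127% and for Lmod1 0.107%. Cnn1 and Des had no count in any of the 9 uninjured libraries, where 3 counts over the group would be 0.112 CPM. Lmod1 and Myocd had counts in only 2 and 1 of the 9 libraries.

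At 3 h after injury Smtn stood at 12.2% of the wall, Mylk at 10.3% and Tagln at 6.24%. Tpm2 stood at 4.08%, Acta2 at 3.69%, Myh11 at 3.07%, Myocd at 2.58% and Cnn1 at 2.33%. Lmod1 stood at 1.15% and Des at 0.294%. At 48 h the shares were 9.77% for Smtn, 7.21% for Tagln, 7.12% for Acta2 and 6.88% for Mylk. Tpm2 then stood at 3.27%, Myh11 at 1.90%, Lmod1 at 1.21%, Myocd at 0.894%, Cnn1 at 0.867% and Des at 0.235%. The median share over the 10 genes was 0.249% in the uninjured flush, 3.38% at 3 h and 2.59% at 48 h. Leaving out Des, which had 1 count at 3 h and 6 at 48 h, the highest and lowest shares differed 10.6-fold at 3 h and 11.3-fold at 48 h.

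**Figure D2:**
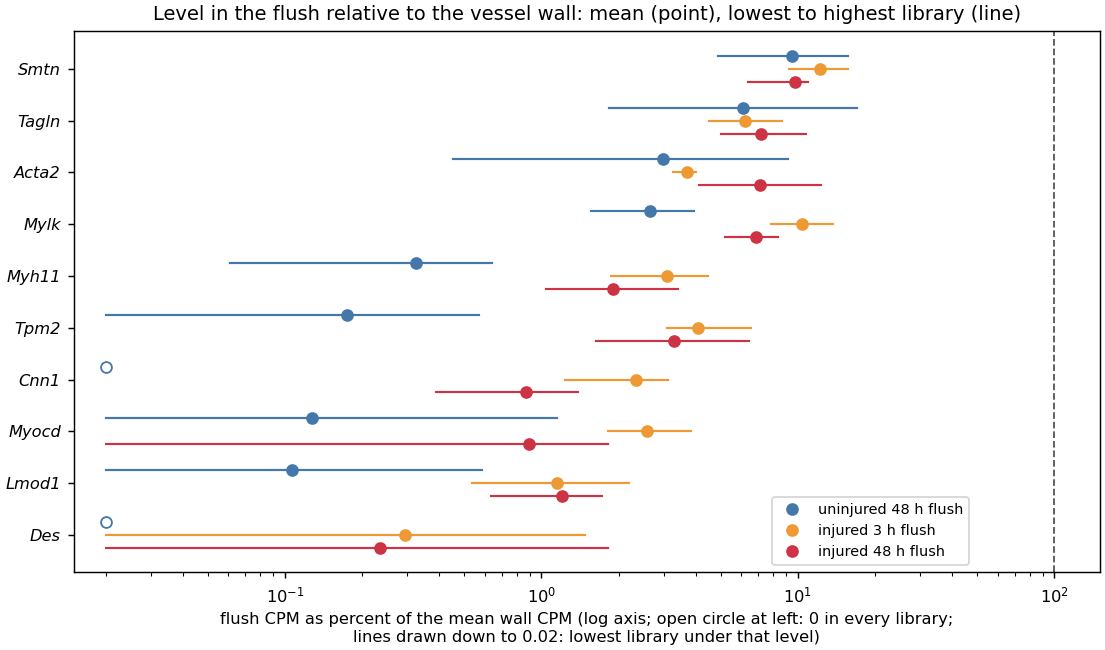
Flush CPM of each gene as a percent of its mean wall CPM (horizontal log axis), with points for the group mean and lines from the lowest to the highest library. Smtn, Tagln, Acta2 and Mylk lie at 2.64% to 12.2% in all 3 flush groups, whereas Myh11, Tpm2, Cnn1, Myocd and Lmod1 lie under 0.4% in the uninjured flush and between 0.867% and 4.08% in the injured flush.

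Comparing the injured 48 h with the uninjured 48 h flush, 7 of the 10 genes rose and none fell, while 24.6% of all genes tested rose and 18.0% fell. The CPM ranges lay apart with the injured group higher for 5 genes, Myh11, Cnn1, Lmod1, Mylk and Tpm2, against 6.19% of all genes. The median log2 change was 2.57 over the 9 genes that had counts for a ratio or a bound, leaving out Des, against 0.18 over all genes. Since both segments came from the same 9 mice, a fit with the mouse as a block was also run. It called the same number of genes higher, 7, and none lower. No gene was lower at an unadjusted p under 0.05 either, and DESeq2 called 7 higher and none lower. Endothelial markers moved between the same groups, with 3 of 12 higher and 7 lower and summed levels that did not overlap, and their part in the rise was not tested.

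Among the motor proteins, Myh11 had a lowest, median and highest CPM of 5.51, 27.7 and 57.5 in the uninjured flush and of 93.5, 151.7 and 305.8 in the injured 48 h flush. It was higher in the injured segment of all 9 mice and rose by 2.57 ± 0.29 (log2, SE; edgeR adjusted p = 1.99e-07). Mylk, the myosin light chain kinase gene (chr16:34745210-35002420), which also encodes a longer kinase found in endothelium, ran from 30.7 through 51.7 to 77.0 CPM in the uninjured flush and from 101.9 through 137.4 to 163.6 CPM at 48 h. It too was higher in all 9 mice and rose by 1.36 ± 0.17 (edgeR adjusted p = 1.04e-06). Both genes passed the test in each of the 3 experimental batches taken alone, with log2 changes of 1.74, 2.79 and 3.32 for Myh11 and of 1.43, 1.28 and 1.41 for Mylk.

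Among the thin filament genes, Tpm2, which encodes beta tropomyosin (chr4:43514711-43523765), had no count in 3 of the 9 uninjured libraries, a median of 1.42 CPM and a highest value of 9.39 CPM. At 48 h it ran from 26.9 through 55.5 to 106.3 CPM, and the groups did not overlap. It rose by 4.12 ± 0.42 (edgeR adjusted p = 4.09e-08) and was higher in 9 of 9 mice. Cnn1, calponin 1 (chr9:22099216-22109630), which binds actin and slows the myosin motor, was at 0 counts in all 9 uninjured libraries and at 2.26, 4.52 and 8.11 CPM as the lowest, median and highest at 48 h. It was at least 45.3-fold higher, set against 3 counts over the whole uninjured group (edgeR adjusted p = 2.35e-07). Lmod1, leiomodin 1 (chr1:135324807-135368065), which nucleates actin filaments, had counts in 2 of 9 uninjured libraries, at most 4.17 CPM, and ran from 4.52 through 8.34 to 12.3 CPM at 48 h. It rose by 2.81 ± 0.50 (edgeR adjusted p = 8.42e-05), and by 5.41 with the mouse as a block (adjusted p = 0.00297). Tpm2 did not pass in batch 1 alone (adjusted p = 0.0504), nor Cnn1 (adjusted p = 0.13 and 0.0653) and Lmod1 (adjusted p = 0.381 and 0.219) in batches 2 and 3 alone, with 3 mice each.

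Myocd, which encodes the transcriptional cofactor myocardin (chr11:65176561-65269989), had counts in 1 of 9 uninjured libraries, mouse E1A, with 7 counts or 3.93 CPM. At 48 h it ran from 0 through 2.86 to 6.23 CPM, with 2 libraries at 0. It rose by 3.48 ± 0.82 (edgeR adjusted p = 0.00159) and was higher in 7 of 9 mice and equal, at 0, in the other 2. With the mouse as a block the log2 change was 5.54 (adjusted p = 0.013), and without the E1A library no uninjured count remained. With only these 2 groups in the fit it was 2.99 and missed the threshold (edgeR adjusted p = 0.0625), and it passed in no batch alone, with adjusted p of 0.339, 0.252 and 0.239.

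Acta2 also rose between the segments, but not evenly over the batches. It ran from 46.0 through 181.9 to 934.2 CPM in the uninjured flush and from 421.0 through 657.5 to 1253 CPM in the injured 48 h flush, and the groups overlapped. It was higher in the injured segment of 8 of 9 mice and rose by 1.26 ± 0.37 (edgeR adjusted p = 0.00804). In mouse E2A it was instead lower, at 421.0 CPM in the injured and 934.2 CPM in the uninjured flush. Within batch 1 the log2 change was 3.44 (edgeR adjusted p = 0.00803), within batch 2 it was 0.16 (adjusted p = 0.857) and within batch 3 it was 1.28 (adjusted p = 0.0656). The uninjured mean was 84.4 CPM in batch 1, 560.1 CPM in batch 2 and 265.8 CPM in batch 3, whereas the injured means were 906.9, 628.6 and 645.9 CPM. The batches therefore differed more in the uninjured than in the injured flush. Without the uninjured E2A library Acta2 rose by 1.69 (adjusted p = 2e-04), and without the injured E2A library by 1.34 (adjusted p = 0.00584).

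Tagln, Smtn and Des did not pass the test at 48 h. Tagln, transgelin, an actin-binding protein of the calponin family (chr9:45929619-45936058), ran from 18.4 through 54.2 to 171.7 CPM in the uninjured flush and from 50.7 through 59.5 to 108.0 CPM at 48 h. The difference was 0.24 ± 0.28 (edgeR adjusted p = 0.501), and 6 of 9 mice were higher in the injured segment. It split by batch as Acta2 did, with log2 changes of 1.87 in batch 1 (edgeR adjusted p = 0.0163), -0.73 in batch 2 (adjusted p = 0.325) and 0.23 in batch 3 (adjusted p = 0.59). Without the uninjured E2A library it rose by 0.60 (edgeR adjusted p = 0.0376), so 1 library decided its call. The antisense gene Gm48529 covers 62.4% of Tagln exon bases in the annotation, is not a row of the count table, and cannot be told apart from Tagln where counting ignores strand, a setting not given in the sources used here.

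Smtn, smoothelin, an actin-binding protein of contractile smooth muscle (chr11:3517523-3540612), was nearly level. It ran from 34.7 through 75.0 to 110.9 CPM in the uninjured flush and from 45.3 through 73.1 to 77.6 CPM at 48 h, with a difference of 0.03 ± 0.17 (edgeR adjusted p = 0.89). It was higher in the injured segment of 4 mice and lower in 5. Des (chr1:75360329-75368579) had 0 counts over the 9 uninjured libraries and 6 counts over the 9 injured 48 h libraries, 5 of them in mouse E2C. No fold is given, and a difference was not detectable at this depth.

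**Figure D3:**
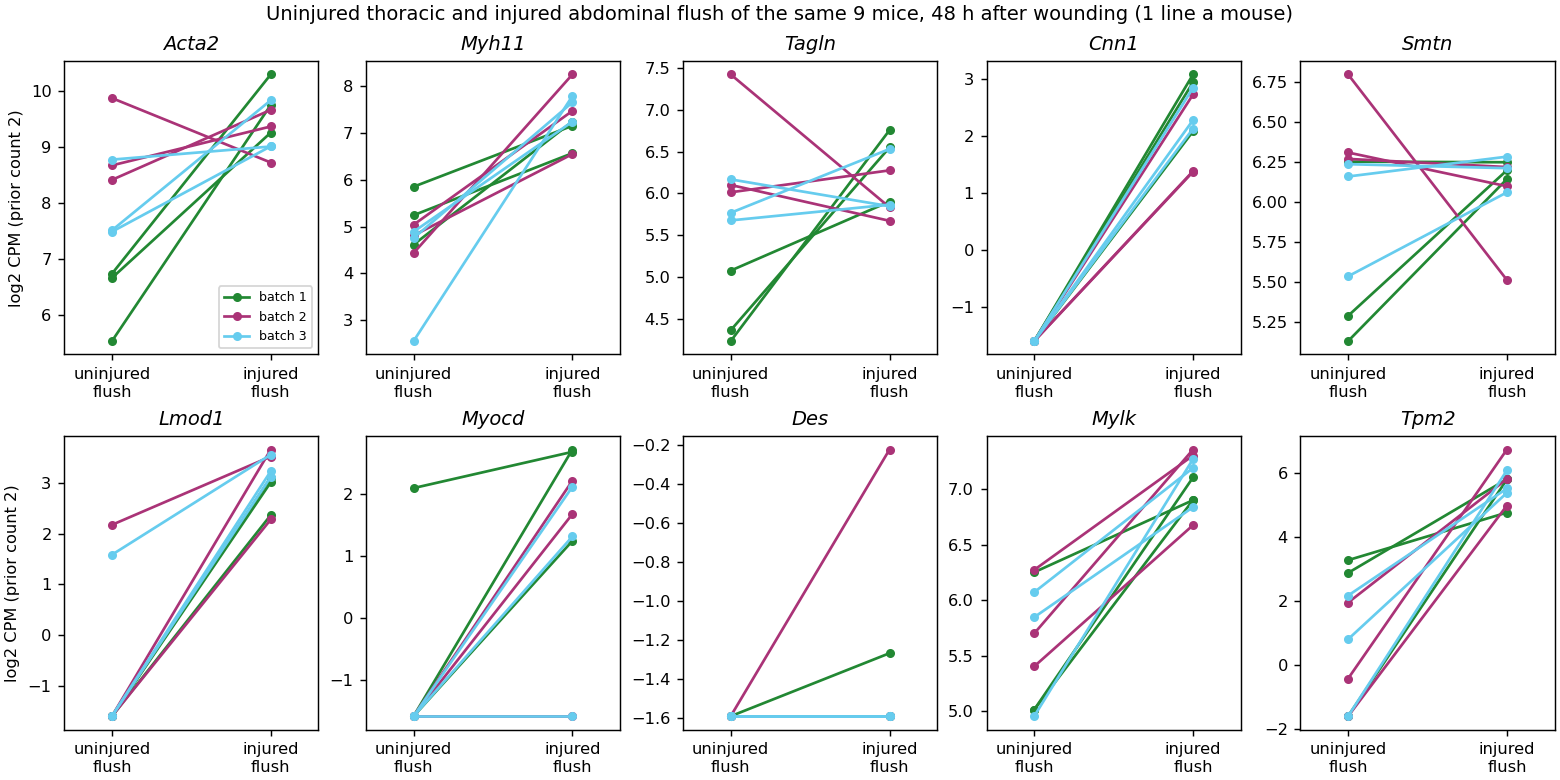
Log2 CPM (prior count 2) of each gene in the uninjured thoracic and injured abdominal flush, 1 line for each of the 9 mice, coloured by experimental batch. All 9 lines climb for Myh11, Cnn1, Lmod1, Mylk and Tpm2, whereas 1 of 9 falls for Acta2, 3 for Tagln and 5 for Smtn.

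Between the injured 3 h and the uninjured flush 6 of the 10 genes rose and none fell, against 16.1% and 11.1% of all genes, and 5 had ranges apart (Myh11, Cnn1, Myocd, Mylk and Tpm2), against 5.94% of all genes. No gene was lower at an unadjusted p under 0.05, and DESeq2 called 6 higher and none lower. These comparisons share the 9 uninjured libraries with those at 48 h. The 5 mice at 3 h had 400.7, 292.9, 196.6, 323.3 and 168.3 CPM of Myh11, which rose by 3.27 ± 0.32 (edgeR adjusted p = 2.59e-08). For Cnn1 they had 18.2, 13.4, 7.19, 16.8 and 12.4 CPM, at least 121.5-fold above 3 counts over the uninjured group (edgeR adjusted p = 1.73e-08). Every one of these values exceeded the highest uninjured library.

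Tpm2 stood at 108.2, 66.2, 55.3, 56.2 and 51.1 CPM at 3 h and rose by 4.44 ± 0.45 (edgeR adjusted p = 4.56e-08). Mylk stood at 188.5, 245.5, 268.7, 155.3 and 153.9 CPM and rose by 1.95 ± 0.19 (edgeR adjusted p = 3.46e-08). Myocd stood at 13.1, 11.6, 6.25, 6.50 and 6.82 CPM and rose by 4.90 ± 0.84 (edgeR adjusted p = 8.14e-05). Myocardin transcript was thus counted in 5 of 5 libraries at 3 h and in 1 of 9 uninjured libraries. Lmod1 stood at 15.6, 8.74, 8.13, 3.83 and 4.55 CPM and rose by 2.73 ± 0.58 (edgeR adjusted p = 0.000946), although with only these 2 groups in the fit it missed the threshold at 3.20 (edgeR adjusted p = 0.0659). Within batches the 3 h group held 2, 2 and 1 mice, and 3 of the 10 genes passed in batch 1 and 3 in batch 2. Of the 6 genes, only Myh11 and Mylk passed in both batches.

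Acta2 was close to its uninjured mean at 3 h, at 410.4, 363.5, 394.0, 381.5 and 333.3 CPM. The 5 values lay within the uninjured range, and the log2 difference was 0.31 ± 0.43 (edgeR adjusted p = 0.638). Here too the batches split, with 2.16 in batch 1 (edgeR adjusted p = 0.00965) and -0.53 in batch 2 (adjusted p = 0.569). Tagln stood at 87.5, 53.7, 63.8, 45.2 and 64.2 CPM, a difference of 0.03 ± 0.34 (edgeR adjusted p = 0.99). Smtn stood at 75.7, 111.2, 96.9, 65.8 and 81.9 CPM, a difference of 0.35 ± 0.20 (edgeR adjusted p = 0.199). Des had 1 count, in mouse C1A, over all 5 libraries.

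From 3 h to 48 h after injury 2 of the 10 genes fell and none rose, against 8.59% and 9.70% of all genes. At an unadjusted p under 0.05, Acta2 was higher, and Myh11, Cnn1, Myocd and Mylk were lower, and DESeq2 called 2 lower and none higher. Cnn1 fell by 1.38 ± 0.28 on the log2 scale (edgeR adjusted p = 0.00174), from a mean of 13.6 ± 4.30 CPM (SD, n = 5) to 5.07 ± 2.16 CPM (SD, n = 9). Mylk fell by 0.59 ± 0.19 (edgeR adjusted p = 0.0325), from 202.4 ± 52.5 to 134.8 ± 21.9 CPM. The Mylk call was lost without any 1 of 6 libraries, C1B or C2A at 3 h and E1B, E1C, E2B or E3A at 48 h.

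Acta2 moved the other way, without passing the test. Its 48 h values, 421.0 CPM and above, all exceeded its 3 h values, 410.4 CPM and below, a pattern that 5.12% of all genes had. The log2 difference was 0.95 ± 0.44 (edgeR adjusted p = 0.141), and it passed with only these 2 groups in the fit at 0.93 (edgeR adjusted p = 0.00494). Myh11 was 0.69 ± 0.30 lower at 48 h (edgeR adjusted p = 0.116) and passed without the injured 48 h E2A library, at 0.84 lower (edgeR adjusted p = 0.0424). Myocd values at 48 h all lay below those at 3 h, as did 4.39% of all genes, with a difference of -1.42 ± 0.54 (edgeR adjusted p = 0.0695). Tagln, Smtn, Lmod1 and Tpm2 had log2 differences of 0.21 ± 0.34, -0.31 ± 0.19, 0.08 ± 0.45 and -0.32 ± 0.36, with edgeR adjusted p of 0.716, 0.277, 0.934 and 0.584.

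RNA of the genes from 1 source keeps 1 ratio of counts only if their levels in that source do not change, which was not tested. Each count was also divided by that of Myh11 in the same library. In the 3 wall libraries Acta2 had 1.48, 1.09 and 0.891 counts for each Myh11 count. At 3 h the median ratio was 1.24, from 1.02 to 2.01, overlapping the wall. At 48 h the median was 4.54, from 1.38 in mouse E2A to 8.79. In the uninjured flush it was 10.4, from 1.85 to 43.9, over Myh11 counts that were low. The log2 ratio was 1.93 above the wall at 48 h (exact permutation test, two-sided, adjusted p = 0.0409 over 27 tests) and 1.59 above that at 3 h (exact permutation test, adjusted p = 0.0246). At 3 h it was 0.34 above the wall (exact permutation test, adjusted p = 0.366).

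Against Myh11, Smtn and Mylk stood above their wall ratio at both times after injury. Smtn had a median of 0.0747 counts for each Myh11 count in the wall, 0.380 at 3 h and 0.482 at 48 h. Mylk had 0.211 in the wall, 0.838 at 3 h and 0.886 at 48 h. For both genes the ranges of wall and injured flush did not overlap. The log2 ratio exceeded the wall by 2.05 at 3 h and 2.45 at 48 h for Smtn and by 1.78 and 1.93 for Mylk (exact permutation tests, adjusted p = 0.0483 at 3 h and 0.0246 at 48 h). In the uninjured flush the median ratio was 2.36 for Smtn and 2.02 for Mylk. Tagln had a median of 0.117 in the wall, 0.218 at 3 h, 0.457 at 48 h and 2.03 in the uninjured flush, and its log2 ratio exceeded the wall by 1.97 at 48 h (exact permutation test, adjusted p = 0.0246) and by 1.07 at 3 h (adjusted p = 0.0981). With Acta2 as the reference in place of Myh11, Smtn and Mylk still exceeded the wall at 3 h, by 1.71 and 1.44 (exact permutation tests, adjusted p = 0.0302 for both). At 48 h they did not pass against Acta2, with differences of 0.53 for Smtn (exact permutation test, adjusted p = 0.144), -0.00035 for Mylk (adjusted p = 0.995) and 0.044 for Tagln (adjusted p = 0.859).

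For Tpm2, Cnn1, Lmod1 and Myocd with Myh11 as the reference, the test against the wall passed for Tpm2 at 48 h alone. Tpm2 had a median of 0.190 in the wall, 0.270 at 3 h and 0.335 at 48 h, and its log2 ratio exceeded the wall by 0.77 at 48 h (exact permutation test, adjusted p = 0.0483). Against Acta2 it was instead 1.15 lower than the wall at 48 h, a log2 difference of -1.15 (exact permutation test, adjusted p = 0.0361). Cnn1 had 0.0630 in the wall, 0.0458 at 3 h and 0.0309 at 48 h, and neither flush passed the exact permutation test against the wall (adjusted p = 0.242 and 0.0981). Lmod1 had 0.0821 in the wall, 0.0299 at 3 h and 0.0514 at 48 h. Its log2 ratio was 0.88 higher at 48 h than at 3 h (exact permutation test, adjusted p = 0.0246) and missed the threshold against the wall (adjusted p = 0.0741 and 0.0641). With Acta2 as the reference the Lmod1 difference from 3 h to 48 h was instead -0.70 (exact permutation test, adjusted p = 0.135). Myocd had 0.0387 in the wall, 0.0327 at 3 h and 0.0180 at 48 h, with exact permutation adjusted p of 0.557 and 0.258 against the wall. Against Acta2, Cnn1, Lmod1 and Myocd were below the wall at 48 h, with log2 differences of -3.00, -2.44 and -3.34 (exact permutation tests, adjusted p = 0.0137, 0.0137 and 0.0205). At 3 h they did not pass against Acta2 (exact permutation tests, adjusted p = 0.0507, 0.0507 and 0.0918).

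In all, 10 of the 27 ratio tests to Myh11 passed, and 17 of 27 with Acta2 as the reference. One of them, Des at 3 h, rested on 1 count and moved from -1.12 to -2.82 with a prior count of 0.5 in place of 2. The permutations took all libraries as independent, although the wall libraries came from mice that also gave injured 48 h flush. The smallest p the design allowed was 0.00455 for 9 against 3 libraries, 0.0179 for 5 against 3 and 0.0005 for 9 against 5. Without any 1 wall library the smallest p rises, and 1 of the 27 tests passed, Lmod1 from 3 h to 48 h. Without any 1 of the 3 h libraries 6 passed, and those lost were Tpm2 at 48 h and the 3 tests of the 3 h flush against the wall. The uninjured ratios were described and not tested, because Myh11 had only 713 counts over the 9 libraries and Cnn1 and Des had none.

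**Figure D4:**
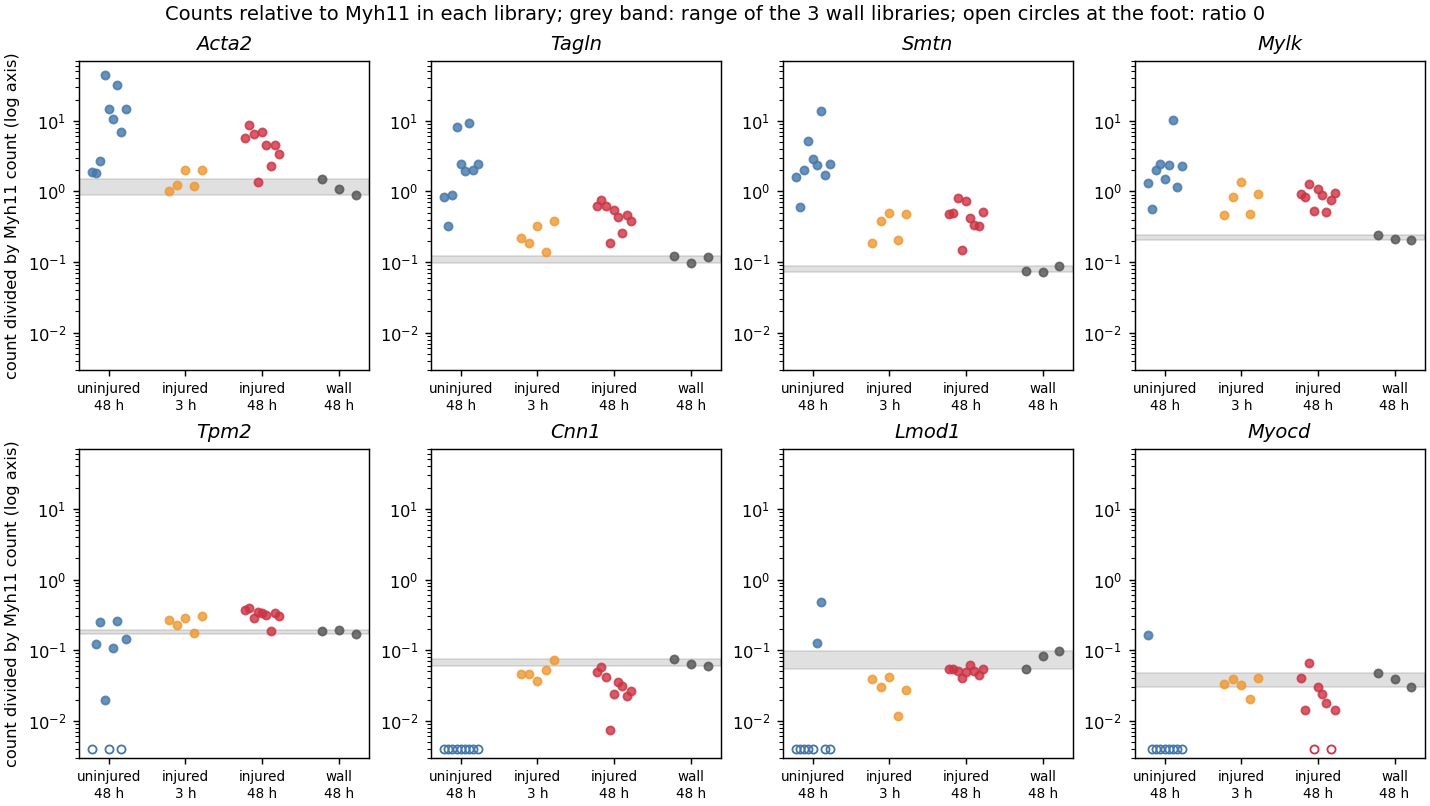
Count of each gene divided by the Myh11 count of the same library (vertical log axis), by group, with a grey band for the range of the 3 wall libraries and open circles at the foot for a ratio of 0. Relative to Myh11, Smtn and Mylk lie above the band in every injured flush library, Acta2 lies near the band at 3 h and above it in 8 of 9 libraries at 48 h, and Cnn1, Lmod1 and Myocd lie near or below it.

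Smooth muscle markers outside the 10 genes moved between the groups too. The list held 11 genes in the table and was chosen with results of these data known. Their summed level was 181.5 to 430.6 CPM in the uninjured flush, 521.8 to 680.9 CPM at 3 h, 332.8 to 527.8 CPM at 48 h and 12890 to 15400 CPM in the wall, with Casq2 at 0 in the uninjured and injured 48 h flush and Ppp1r14a at 0 at 3 h. Against the uninjured flush 7 of 10 tested rose at 3 h and 4 of 10 at 48 h, and none fell. From 3 h to 48 h 1 of 10 fell, and 4 did without the injured E2A library. The shares of the wall that the 10 tested held in the uninjured flush ran from 0.450% for Actg2, the enteric smooth muscle actin, to 61.2% for Pln, phospholamban, which was low in the wall at 4.74 CPM. In between, Itga8 stood at 0.553%, Kcnmb1 at 0.699%, Aoc3 at 0.850%, Ppp1r14a at 1.05%, Npnt at 2.83%, Synpo2 at 3.50%, Sost at 4.52% and Mustn1 at 6.99%. Pericyte markers summed to 82.4 to 174.4 CPM in the uninjured flush, 149.3 to 546.1 at 3 h, 106.0 to 408.9 at 48 h and 4433 to 5260 CPM in the wall. Of 8 pericyte markers, Cspg4, Notch3, Kcnj8 and Cox4i2 were at 0 in the uninjured flush. Of 6 pericyte markers tested, 4 rose and 1 fell at 48 h, and 2 rose and 1 fell at 3 h. The part of such cells in the results was not tested. All 12 skeletal muscle markers, among them Acta1 and Ckm, were at 0 in the uninjured flush and summed to at most 5.07 CPM in any flush library. Cardiac markers summed to at most 14.5 CPM in the flush, with Myh6 and Tnnt2 at 0.

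Other blood and wall cell markers also differed between groups, and their part in the results was not tested. Fibroblast markers summed to 509.2 to 1199 CPM in the uninjured flush, 608.0 to 1175 at 3 h, 530.2 to 10640 at 48 h and 7597 to 9505 CPM in the wall, and Pdgfra was at 0 at 3 h. Of 10 tested, 7 rose and 1 fell at 48 h against the uninjured flush, and 4 rose and 1 fell without the injured E2A library. Macrophage markers summed to 32.9 to 141.7 CPM in the uninjured flush, 51.2 to 110.7 at 3 h and 116.6 to 1495 CPM at 48 h, where 6 of 7 rose, and 5 without the injured E2A library. Of 5 mesothelial markers tested, 5 rose at 48 h, and 2 without that library. Adipocyte markers summed to 0 to 467.7 CPM in the uninjured flush, with 8 of 9 libraries at most at 24.0, and to 116.7 to 230.4 at 3 h, 48.9 to 237.7 at 48 h and 233.5 to 328.9 CPM in the wall, with Lep at 0 in the flush. Neutrophil markers summed to 32.9 to 187.5 CPM in the uninjured flush, 112.4 to 4582 at 3 h and 106.6 to 553.8 CPM at 48 h. Platelet markers summed to 55.0 to 124.2 CPM in the uninjured flush, 465.6 to 954.2 at 3 h and 88.4 to 290.0 CPM at 48 h.

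Genes of the wider contractile apparatus moved in both directions at 48 h. Their counts, and those of the marker lists above and the lists below, stand beside the shares of all genes. Against the uninjured flush 24.6% of all genes were higher and 18.0% lower at 48 h, and 16.1% and 11.1% at 3 h. From 3 h to 48 h the shares were 9.70% and 8.59%. Of 20 accessory filament and dense body genes, 11 rose and 4 fell at 48 h against the uninjured flush, with a median of 0.26 (log2) against 0.18 over all genes. At 3 h 9 rose and none fell, with a median of 0.45. Myl9, the regulatory light chain of smooth muscle myosin, went from 10.6 ± 9.57 CPM (SD, n = 9) to 68.5 ± 12.5 at 3 h (n = 5; log2 change 2.63, edgeR adjusted p = 7.69e-06) and 41.6 ± 8.02 CPM at 48 h (n = 9; 1.91, adjusted p = 7.43e-05). Cald1, caldesmon, which restrains actomyosin, went from 694.2 ± 109.2 to 1233 ± 202.7 at 3 h (0.83, edgeR adjusted p = 4.55e-06) and 1071 ± 124.6 CPM at 48 h (0.63, adjusted p = 1.92e-05). Actn1, which cross-links actin, rose by 0.59 at 48 h (edgeR adjusted p = 8.25e-05). From 3 h to 48 h 4 of the 20 fell and none rose, and 6 fell without the injured E2A library, with Tns1, a focal adhesion protein, down by 1.03 (edgeR adjusted p = 2.03e-07).

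Of 13 genes of myosin light chain kinase and phosphatase control, 1 rose and 1 fell at 48 h and 6 rose at 3 h, with medians of 0.12 and 0.37 (log2). Without the injured E2A library 2 rose at 48 h. Ppp1cb, a catalytic subunit of myosin phosphatase, rose by 0.73 at 3 h (edgeR adjusted p = 4.28e-07) and fell by 0.81 from 3 h to 48 h (adjusted p = 1.65e-07). Myl12b, a nonmuscle regulatory light chain, fell by 0.55 at 48 h (edgeR adjusted p = 0.00352). Of 10 tested genes of calcium channels and handling, 1 rose and 3 fell at 48 h, and 2 rose and 2 fell at 3 h, with medians of -0.61 and 0.23. The calcium pump gene Atp2a2 rose by 0.52 at 48 h (edgeR adjusted p = 4.16e-05), and the ryanodine receptor gene Ryr3 fell by 2.35 (adjusted p = 5.62e-05). Kcnma1, the pore of the calcium-activated potassium channel, fell by 1.87 at 48 h (edgeR adjusted p = 0.000229), whereas Kcnmb1, its smooth muscle subunit, rose by 2.25 at 3 h (adjusted p = 0.014). At 48 h Ryr3 stood at only 13.95 CPM, which was 556.7% of its wall level, so that level was low. Atp2a2 stood at 29.8% of its wall level, Kcnma1 at 3.52% and Kcnmb1 at 1.40%.

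Of 14 tested regulators of serum response factor and myocardin, 5 rose and 3 fell at 48 h, and 4 rose and 2 fell at 3 h. Their median was 0.041 at 48 h against 0.18 over all genes. Of all genes tested, 24.6% rose and 18.0% fell at 48 h, and 16.1% rose and 11.1% fell at 3 h. Fhl2, a cofactor of serum response factor, was at 0 in all uninjured and 3 h libraries and at 3.47 ± 2.32 CPM (SD, n = 9) at 48 h (edgeR adjusted p = 1.55e-05 against the uninjured flush). Gata6, a transcription factor of vascular smooth muscle, fell by 0.85 at 48 h (edgeR adjusted p = 3.32e-05), and Tbx18, a mural cell factor, fell by 2.16 (adjusted p = 0.000137). Mkl2, a myocardin-related cofactor, rose by 0.49 at 3 h (edgeR adjusted p = 0.000613). Klf4, a repressor of contractile genes in smooth muscle that endothelium also expresses, stood at 349.2 ± 110.4 CPM at 3 h and fell by 1.40 by 48 h (edgeR adjusted p = 0.00194). Of the 14 regulators, 1 was higher in the injured 48 h flush than in the wall, Mkl2 at 381.9% of its wall level, and 6 were lower. Klf4 stood at 198.6% of its wall level at 48 h and Gata6 at 122.7%, but neither was called higher. Others of the list stood below their wall level, with Mef2d at 52.46%, Mef2a at 47.55% and Fhl2 at 41.7%. Mef2c stood at 27.98%, Prrx1 at 13.34% and Tbx18 at 9.58% of their wall level. The 10 contractile genes held at most 9.77% of theirs at 48 h.

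Of 13 genes that smooth muscle raises on leaving the contractile state, 10 rose and 2 fell at 48 h, and 8 rose without the injured E2A library. At 3 h 7 rose and none fell. Col8a1, a short-chain collagen, went from 38.7 ± 19.0 CPM (SD, n = 9) to 481.1 ± 155.7 at 3 h (n = 5) and 900.7 ± 256.2 CPM at 48 h (n = 9), with log2 changes of 3.65 (edgeR adjusted p = 1.54e-09) and 4.56 (adjusted p = 2.46e-11). Vim, vimentin, rose by 0.76 at 3 h (edgeR adjusted p = 0.00118) and 1.22 at 48 h (adjusted p = 5.42e-07), and Ly6a by 2.47 (adjusted p = 1.25e-06) and 1.70 (adjusted p = 2.7e-05). Lgals3, galectin 3, was at 0 in the uninjured flush and at 25.6 ± 20.9 CPM at 48 h. Against the wall 6 of the 13 were higher and 4 lower in the injured 48 h flush, with a median of -0.046 (log2). Over all 13884 genes tested, 3050 were higher and 1880 lower than the wall, with a median of 0.15. Without the injured E2A library 5 of the 13 were higher and 6 lower. Col8a1 stood at 2553%, Ly6a at 388.8% and Vim at 97.0% of the wall at 48 h. The list is not specific to smooth muscle, and endothelium and leukocytes express several of its genes.

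The 6 genes whose pattern was most like the mean standardised level of the 10 were chosen among 9943 genes by Pearson correlation over the 26 libraries. They were Dstn (r = 0.991), Cald1 (0.966), Pls3 (0.965), Rcan2 (0.965), Synpo2 (0.964) and Actn1 (0.957). The 26 libraries fall into 4 groups, with the wall far above the flush, and 9 mice gave more than 1 library. Dstn, destrin, which severs actin filaments, stood at means of 169.8, 341.2, 281.0 and 2163 CPM in the uninjured, 3 h, 48 h and wall groups. Rcan2, a calcineurin regulator, stood at 0.209, 7.62, 6.09 and 550.2 CPM. Synpo2, a dense body protein, stood at 148.8, 309.3, 234.9 and 4248 CPM.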

How the data were processed

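Raw counts per gene in 26 libraries, as deposited by the authors, were the only values used. Per the submitters' processing notes HISAT2 2.0.3, HTSeq, DESeq2 1.14.1 and the build GRCm38 were named, without their roles. Strand setting is not given in the sources used here. Per the labels' protocols, libraries were made with the NuGEN Ovation Ultralow kit. Counts were tested with edgeR 4.0.16 (R 4.3.3; quasi-likelihood, TMM, filterByExpr by group, all 26 libraries, no covariate, Benjamini-Hochberg, threshold 0.05). Ratios to Myh11 used log2 CPM with a prior count of 2 and exact permutation over libraries, without the pairing by mouse. Alternatives were DESeq2 1.42.0, median-of-ratios scaling, no filter, batch, mouse block, 2-group fits and each library left out. The fit was checked on simulated counts. Injured, uninjured and wall libraries were paired by the mouse named in the labels, and deviations of the same mouse correlated between -0.127 and 0.207. Named genes were all members, up to 4 genes with the smallest p of each list and the 6 most alike. The members and lists were chosen with earlier results of these data known. The table headers of the 3 h libraries read 0 h, and the labels were followed. Intervals and floors cover counting error only. A few genes of the lists are not reported here.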

Additional observations from a re-analysis of the deposited data

Results flagged for a closer look

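Of 46 sets of 4 to 10 libraries checked for a library far from the rest, 7 had one. A rate of about 1 in 20 by chance assumes normally distributed values. Sets in which most libraries had no count, as for Myocd and Des here, do not meet that. Myh11 in the uninjured library of mouse E3A stood low, at a log2 CPM of 2.55. Smtn in the injured 48 h library of E2A stood low, at 5.51. Myocd in the uninjured library of E1A, with 7 counts, stood high at 2.09 where the other 8 had none. Des stood high in the 3 h library of C1A, at -0.41 with 1 count, and in the injured 48 h library of E2C, at -0.22 with 5 counts. The log2 ratio of Cnn1 to Myh11 stood low in the injured 48 h library of E2A, at -6.87, and that of Tpm2 to Myh11 in that of E3A, at -2.41.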

How the results depend on the processing

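Of 55 values past the threshold, 36 stayed past it under every alternative scored gene by gene, among them all comparisons with the wall outside the ratios to Myh11. The Acta2 reference was not scored in this way. Under it the Lmod1 ratio from 3 h to 48 h, 1 of the 36, did not pass, at -0.70 (exact permutation test, adjusted p = 0.135). The mouse block changed no call: 7 genes were higher and none lower between injured and uninjured flush. Batches alone, with 2 or 3 mice a group, called 6 genes higher at 48 h in batch 1, 3 in batch 2 and 3 in batch 3, and 3 at 3 h in batch 1 and 3 in batch 2; batch 3 was not fitted at 3 h, with 1 mouse. In batch 2 the log2 difference turned to -0.73 for Tagln and -0.51 for Smtn at 48 h, and to -0.53 for Acta2, -0.89 for Tagln and -0.13 for Smtn at 3 h. Values near 0 that turned were Tagln at 3 h (-0.024 with median-of-ratios scaling, -0.020 with DESeq2) and Des from 3 h to 48 h (-0.18 with DESeq2, -0.050 with batch as a covariate, -0.0038 with 2 groups). With 2 groups in the fit 1 gene was higher at 48 h than at 3 h. With Acta2 as the reference 17 ratio tests passed. Leaving out 1 library gave -0.049 to 0.15 for Smtn at 48 h, -0.12 to 0.39 for Tagln and 0 to 2.47 for Des at 3 h, -0.089 to 0.42 for Lmod1 and -1.36 to 2.25 for Des from 3 h to 48 h, -0.022 to 0.36 for the Mylk ratio from 3 h to 48 h, 1 to 3 genes lower from 3 h to 48 h, and 1 to 12 ratio tests. The causes were not tested. Depth limits Des, Cnn1, Lmod1 and Myocd in the flush.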
